A study of Mus musculus with 21 samples.

Results

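Formative stem cells (FS cells) were compared with the mouse epiblast of embryonic day 5.0 (E5.0), gene by gene. The comparison was chosen by sample: all 6 FS samples and all 3 E5.0 samples were taken, which is 9 of the 21 samples of the series. FS cells were grown in the medium named A3XR and came from 2 lines, with passages 10, 11 and 18 of line 1, passages 12, 13 and 16 of line 2 and 1000 cells to a sample. Each E5.0 sample was the epiblast of a single embryo, numbered 1, 2 or 4. Total RNA was prepared with the PicoPure kit in both groups. Strain, genotype, sex and the embryo of origin of each line are not given in the labels, and neither is the composition of the medium. The other 12 samples, used beside the main comparison, were AF and AFX cells (both labelled epiblast stem cells, carrying the name E14, in media named AF and AFX) and epiblasts of E5.5 and E6.0, with 3 samples each. The last stage is given as 6.0 in the titles and as 6.5 in another field of the labels.

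The epiblast is the pluripotent tissue of the embryo that gives rise to the body and the germline. Around implantation it leaves the naive state of the blastocyst, loses transcription factors such as Klf4 and Tbx3, gains the de novo DNA methyltransferases, and forms a polarised epithelium on a basement membrane made with the visceral endoderm around it. The formative state lies between the naive state and the primed state of the later epiblast, and cells in it can respond to signals for the germline and for the somatic layers. Formative stem cells are lines meant to hold this state in culture.

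Levels are given as CPM, the counts of a gene scaled to the library size after TMM normalisation. Log2 fold changes are FS minus E5.0 with their SE, and adjusted p values come from edgeR's quasi-likelihood test over all genes tested. A gene is said to have risen or fallen where its adjusted p was under 0.05. Passages of a line are not independent derivations, so the p values measure the spread between these samples. CPM shows the share of a gene in its library, so it does not compare the levels of genes of different length.

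Total counts ran from 7753188 to 15916800 in FS and from 5827093 to 9391906 at E5.0, and 3 counts were worth 0.171 to 0.590 CPM. FS libraries held more genes with at least 5 counts (16521 ± 747, SD, n = 6, against 14791 ± 523, n = 3; exact permutation p = 0.0238, the smallest that 6 against 3 samples can give, adjusted over 4 measures 0.0476). All 6 pluripotent cell markers and all 4 markers of the epiblast after implantation had counts in every sample of both groups. Their summed levels were 1153 to 1445 CPM in FS against 1678 to 1738 CPM at E5.0 for the first list, and 1423 to 2234 against 3048 to 3230 CPM for the second. Several libraries stood apart from their labels. The 12 visceral endoderm markers summed to 652, 815 and 261 CPM in E5.0 embryos 1, 2 and 4 and to 2.34 to 3.90 CPM in FS, where 5 of them (Afp, Apoa4, Apob, Hnf4a and Ttr) had no count in any sample. The 8 extraembryonic ectoderm markers summed to 91.6, 127 and 47.1 CPM in the same embryos against 33.9 to 57.9 CPM in FS, and some trophoblast genes were high in embryo 2 alone. The 8 feeder fibroblast markers summed to 15.4 to 44.9 CPM in FS and 11.05 to 22.75 CPM at E5.0, with Lum at 0 in all FS samples and Postn and Twist2 at 0 in all epiblasts. FS line 1 passage 10 was high in primitive streak genes. The Y-linked gene Ddx3y was read in FS line 2 and embryo 2 and nearly absent from line 1 and embryos 1 and 4.

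Of 33861 genes in the table, 16614 passed the filter on low counts. FS cells and E5.0 epiblasts differed in 8612 of them (51.8%), with 4495 higher (27.1%) and 4117 lower (24.8%) in FS, and the median log2 fold change of all tested genes was 0.06. A change of at least 2-fold was found for 5096 genes (30.7%), 3124 higher (18.8%) and 1972 lower (11.9%), and of at least 4-fold for 2849 genes (17.1%), 1805 higher (10.9%) and 1044 lower (6.28%). In 6966 genes (41.9%) the 6 FS and the 3 E5.0 samples did not overlap, with FS above in 3780 (22.8%) and below in 3186 (19.2%). With over 1 in 2 genes called, a list in which a like share of members changed shows nothing beyond this background, and the counts below are to be read against it.

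**Figure D1:**
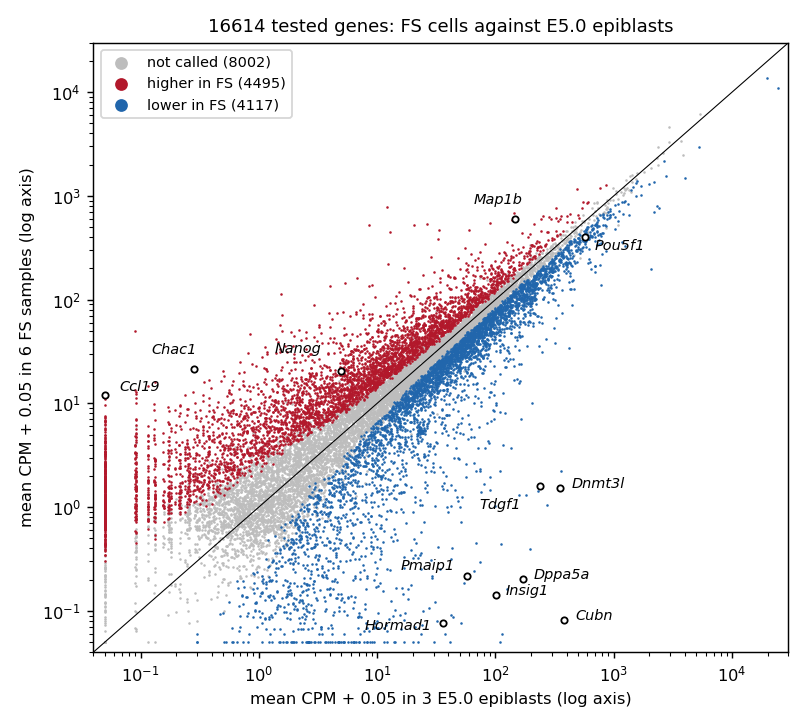
Mean CPM of each of 16614 tested genes in the 3 E5.0 epiblasts (horizontal, log axis, 0.05 CPM added) against the 6 FS samples (vertical, log axis, 0.05 CPM added), with 4495 genes higher in FS in red, 4117 lower in blue and 8002 not called in grey. Ringed genes are named, and Dppa5a, Insig1, Pmaip1, Hormad1 and Cubn lie at the bottom, near 0 CPM in FS.

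The core of the pluripotency network was kept at unequal levels. Pou5f1 (ENSMUSG00000024406, chr17:35506018-35510772, plus strand), the POU factor that pluripotent cells need, ranged from 353 to 482 CPM in the 6 FS samples (median 387) and was at 591, 554 and 579 CPM in the 3 epiblasts. All FS samples lay below the epiblasts, with a difference of -0.52 ± 0.12 on the log2 scale (adjusted p 0.000713). Sox2, its partner on DNA, was at 42.4 to 77.8 CPM in FS, with a median of 65.1, against 38.9, 38.1 and 56.2 CPM at E5.0. The groups overlapped, and the difference did not pass (0.49 ± 0.22, adjusted p 0.0691), but it passed without passage 10 (0.59, adjusted p 0.0269) and without embryo 4 (0.71, adjusted p 0.0304). Nanog (ENSMUSG00000012396, chr6:122707489-122714633, plus strand), a homeobox factor of the same network, was at 10.6, 2.75 and 1.32 CPM in the 3 epiblasts and 11.2 to 28.8 CPM in FS (median 20.5). Every FS sample was above every epiblast, with a difference of 2.03 ± 0.54 on the log2 scale (adjusted p 0.00453), but embryo 1 was close to the lowest FS sample, and without it the difference was 3.42. In the older epiblasts Nanog was at 6.56 to 15.7 CPM at E5.5, overlapping E5.0 (0.96 ± 0.59, adjusted p 0.332), and at 28.6 to 44.6 CPM at E6.0.

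Of the 14 general pluripotency genes 9 fell, 2 rose and 3 did not pass, with a median of -0.50. The deepest fall was that of Tdgf1 (ENSMUSG00000032494, chr9:110939603-110946158, minus strand), the membrane-bound co-receptor of NODAL, which ranged from 0.236 to 3.58 CPM in the 6 FS samples (median 1.303) and was at 345, 163 and 212 CPM in the 3 epiblasts. Its groups were far apart, with a difference of -7.27 ± 0.69 on the log2 scale (adjusted p 4.22e-07). Dppa4 was at 0.118 to 3.802 CPM in FS, with a median of 2.34, against 97.9, 80.96 and 93.3 CPM at E5.0. Dppa2, which lies beside Dppa4 and forms a chromatin-bound pair with it, was at 0 to 6.65 CPM in FS, with a median of 1.31, against 78.6, 58.95 and 82.5 CPM at E5.0. Both fell, at -5.54 ± 0.45 (adjusted p 2.76e-08) and -5.04 ± 0.66 (adjusted p 9.79e-06) on the log2 scale, and no FS sample reached an epiblast. Without passage 13 the difference of Dppa2 was -5.66. Utf1, a chromatin factor of pluripotent cells, fell by less, at -1.83 ± 0.26 (adjusted p 1.44e-05). Sall4, a zinc finger factor, fell at -0.65 ± 0.14 (adjusted p 0.000402). Lin28a, which blocks let-7 maturation, did not pass (0.23 ± 0.12, adjusted p 0.112), except in line 2 alone (0.38, adjusted p 0.0122).

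Naive genes were mostly lower in FS than in the epiblast, which at E5.0 still held some of their RNA. Of 17 listed, 15 were tested, 12 fell, 1 rose and 2 did not pass, with a median of -2.50. Prdm14 and Tcl1 did not pass the filter, and without embryo 2 the members that rose numbered 2. Dppa5a (ENSMUSG00000060461, chr9:78367052-78368177, minus strand), an RNA-binding protein of early pluripotent cells, was at 162, 186 and 171 CPM in the 3 epiblasts and 0 to 0.245 CPM in FS (median 0.166). No FS sample held more than 3 counts, which makes the gene at least 637-fold lower in FS (adjusted p 9.59e-14). Zfp42, also called Rex1, was at 17.3, 22.6 and 14.8 CPM in the 3 epiblasts and 0 to 0.199 CPM in FS (median 0.0591). Zfp42 was at least 67.2-fold lower in FS (adjusted p 1.49e-10). Dppa3, a maternal and germline factor that guards methylation, was at 5.97, 8.84 and 6.005 CPM in the 3 epiblasts and had no count in FS. The bound was at least 25.6-fold lower in FS (adjusted p 4.17e-08). Tbx3, a T-box factor, was at least 16.8-fold lower in FS (adjusted p 0.000109). The Kruppel-like factors were low in both groups and lower in FS. Klf4 was at 0.951 to 1.79 CPM in FS, with a median of 1.36, against 4.35, 5.699 and 4.08 CPM at E5.0, and all FS samples were below all epiblasts, with a difference of -1.79 ± 0.32 on the log2 scale (adjusted p 6.33e-05). Klf2 was at 0.87, 2.36 and 8.53 CPM in the 3 epiblasts and 0.057 to 0.734 CPM in FS (median 0.369), and Klf5 at 8.58, 32.03 and 10.9 CPM in the 3 epiblasts and 2.51 to 7.48 CPM in FS (median 4.13). They fell at -3.30 ± 0.66 (adjusted p 0.000253) and -1.92 ± 0.38 (adjusted p 0.000221), with single epiblasts far above the others. Without embryo 4 Klf2 was at -1.95 (adjusted p 0.0338), and without embryo 2 Klf5 was at -1.13 (adjusted p 0.0133). Tet2, which oxidises methylcytosine, was the only member that rose, at 1.77 ± 0.54 (adjusted p 0.0109). It was at 11.2, 15.5 and 0.48 CPM in the 3 epiblasts and 19.7 to 38.1 CPM in FS (median 30.6). Every FS sample was above the epiblasts, and the call was lost in the 9 samples alone (1.76, adjusted p 0.0513).

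Genes of the formative and postimplantation epiblast did not move together. Of 20 members 13 fell, 5 rose and 2 did not pass, with a median of -0.85. The factor Otx2, which opens enhancers as cells leave the naive state, was at 58.4 to 114 CPM in FS, with a median of 92.05, against 129, 65.6 and 95.4 CPM at E5.0. Fgf5, the growth factor most used to mark the postimplantation epiblast, was at 56.2 to 126 CPM in FS, with a median of 86.9, against 74.2, 75.1 and 100.3 CPM at E5.0. Both genes overlapped between the groups, with differences of -0.13 ± 0.20 (adjusted p 0.608) and 0.06 ± 0.23 (adjusted p 0.837). Pou3f1, the POU factor also called Oct6, was at 39.6 to 80.8 CPM in FS, with a median of 53.9, against 163, 189 and 215 CPM at E5.0. It fell with no overlap, at -1.75 ± 0.18 (adjusted p 5.89e-08). Grhl2, an epithelial factor, was at 166, 147 and 160.3 CPM in the 3 epiblasts and 18.02 to 28.5 CPM in FS (median 23.3). It fell at -2.73 ± 0.14 (adjusted p 8.07e-13), with no overlap. Foxd3 and Etv5 also fell, at -1.81 ± 0.42 (adjusted p 0.0017) and -1.56 ± 0.17 (adjusted p 1.64e-07). On the other side, Enpp3, an ectoenzyme on the cell surface, was at 74.1 to 293 CPM in FS, with a median of 149, against 33.4, 25.9 and 41.7 CPM at E5.0. All FS samples exceeded the epiblasts, and the rise was 2.24 ± 0.41 (SE, log2, adjusted p 0.000243). Sox11 was at 129, 126 and 142 CPM in the 3 epiblasts and 226 to 248 CPM in FS (median 238), a rise of 0.85 ± 0.11 (adjusted p 1.87e-06). Zic5 rose by less than 2-fold as well, at 0.98 ± 0.18 (adjusted p 0.000122).

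The enzymes that write DNA methylation were lower in FS, and their cofactor nearly absent. Of 10 enzyme genes 6 fell, 2 rose and 2 did not pass, with a median of -0.56. Leaving out passage 12 or any one of the epiblasts left 1 that rose. Dnmt3l (ENSMUSG00000000730, chr10:78041947-78063622, plus strand), which has no catalytic activity and stimulates the de novo enzymes, was at 288, 330.3 and 429 CPM in the 3 epiblasts and 0.163 to 3.701 CPM in FS (median 0.864). All FS samples lay far below, with a difference of -7.75 ± 0.62 on the log2 scale (adjusted p 5.7e-08). Dnmt3a, a de novo methyltransferase, was at 159 to 266 CPM in FS, with a median of 190.1, against 601, 709 and 622 CPM at E5.0. Dnmt3b, the other de novo enzyme, was at 1211 to 1958 CPM in FS, with a median of 1469.9, against 2682, 2862 and 2819 CPM at E5.0. Neither gene overlapped between the groups, and they fell at -1.69 ± 0.13 (adjusted p 3.46e-10) and -0.85 ± 0.15 (adjusted p 0.000115). Uhrf1, which brings the maintenance enzyme to replicated DNA, was at 257 to 492 CPM in FS, with a median of 323, against 745, 763 and 760.4 CPM at E5.0. It fell at -1.15 ± 0.16 (adjusted p 3.53e-06). The maintenance enzyme Dnmt1 fell by a small amount, at -0.34 ± 0.10 (adjusted p 0.0058), and the call was lost without embryo 4 (-0.27, adjusted p 0.05585) and in line 1 alone (-0.20, adjusted p 0.0875). Tet1, an enzyme of methylcytosine oxidation, fell at -0.78 ± 0.11 (adjusted p 2.64e-06). Dnmt3l was lower in the older epiblasts, at 109.8 to 232 CPM at E5.5 and 9.86 to 26.96 CPM at E6.0, and E6.0 minus E5.0 was -4.30 ± 0.67 (adjusted p 0.000254).

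Germline and meiosis genes had reads in the E5.0 epiblast, and most of them had almost none in FS. Of 18 listed, 15 were tested, 14 fell, none rose, and Sycp3 did not pass. The median was -5.17, or -3.94 with genes at or under 3 counts held at their bound. In the 9 samples alone 9 members passed, and with a mean of at least 5 CPM, which tests fewer genes, 2 fell. Hormad1 (ENSMUSG00000028109, chr3:95559677-95587671, plus strand), a protein of meiotic chromosome axes, was at 46.3, 32.2 and 28.6 CPM in the 3 epiblasts and 0 to 0.161 CPM in FS (median 0). Hormad1 was at least 132-fold lower in FS (adjusted p 3.16e-10). Stk31 (ENSMUSG00000023403), a germ cell kinase, was at 6.96, 6.09 and 15.1 CPM in the 3 epiblasts and had no count in FS. Stk31 was at least 34.7-fold lower in FS (adjusted p 2.22e-06). Dazl, an RNA-binding protein of germ cells, was at 2.86, 15.5 and 10.1 CPM in the 3 epiblasts and 0 to 0.106 CPM in FS (median 0). Dazl was at least 35.01-fold lower in FS (adjusted p 2.51e-07). Ddx4, the germ cell helicase also called Vasa, was at 6.71, 14.7 and 7.33 CPM in the 3 epiblasts and 0 to 0.528 CPM in FS (median 0.242). All FS samples stayed below the epiblasts, at -5.17 ± 0.46 (SE, log2, adjusted p 5.88e-09). Rnf17, a Tudor domain protein of the germline, fell at -4.43 ± 0.50 (adjusted p 1.43e-06). Sycp3, a protein of the synaptonemal complex, was at 5.47, 9.43 and 1.32 CPM in the 3 epiblasts and 0.118 to 4.01 CPM in FS (median 2.24). The groups overlapped, and -1.31 ± 0.64 did not pass (adjusted p 0.0939), but the call was made with the FS lines as separate groups (-1.74, adjusted p 0.00789), in line 1 alone (-2.86, adjusted p 0.0017) and without embryo 4 (-1.78, adjusted p 0.0311). Without embryo 2 the difference was -0.70 (adjusted p 0.451), and in line 2 alone -0.61 (adjusted p 0.395).

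Promoters of germline genes are known to carry the 6-letter E-box CACGTG, so the letters were looked for in the 250 bases before the most upstream start of each gene in RefSeq (GRCm38.p6), on both strands, on which this palindrome reads the same. It was found in 8 of the 12 list members that matched by symbol (Ddx4, Hormad1, Mael, Stk31, Sycp1, Sycp3, Taf7l and Tdrd1), and in 1633 of all 27025 promoters searched (6.04%). The last 100 bases before the start are shown for 3 members that fell and for Sycp3, which holds the letters and did not pass with the lines together, with CACGTG in capitals.
Hormad1 (chr3:95559577-95559676, plus strand): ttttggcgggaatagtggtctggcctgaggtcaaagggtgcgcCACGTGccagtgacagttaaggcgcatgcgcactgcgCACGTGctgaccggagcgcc
Stk31 (chr6:49395439-49395538, plus strand): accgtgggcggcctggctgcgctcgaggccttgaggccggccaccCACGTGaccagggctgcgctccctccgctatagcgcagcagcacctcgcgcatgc
Ddx4 (chr13:112652311-112652410, minus strand): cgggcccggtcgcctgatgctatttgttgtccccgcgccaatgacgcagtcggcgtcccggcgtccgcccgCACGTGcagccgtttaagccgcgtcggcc
Sycp3 (chr10:88459487-88459586, plus strand): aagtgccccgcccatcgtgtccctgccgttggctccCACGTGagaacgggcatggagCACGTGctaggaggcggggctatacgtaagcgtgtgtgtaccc
The letters began 57 and 20 bases before the start in Hormad1, 55 in Stk31, 29 in Ddx4, and 64 and 43 in Sycp3. A match describes the sequence and is not a measured site. Short motifs were searched in 5 lists, and which promoters to show was decided after the matches were seen.

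**Figure D2:**
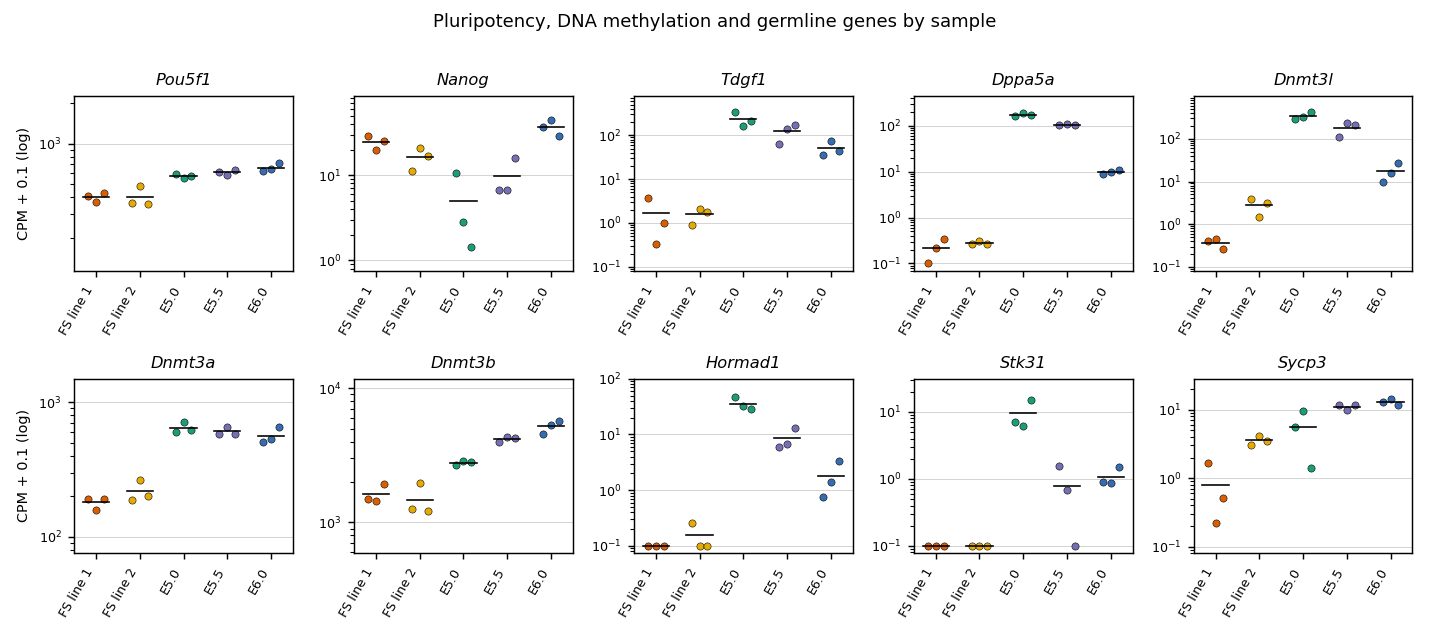
CPM (log axes, 0.1 CPM added) of 10 genes in the 3 samples of each FS line and of each epiblast stage (E5.0, E5.5, E6.0), with a bar at the group mean. Tdgf1, Dppa5a, Dnmt3l and Hormad1 are lower in all 6 FS samples than in all 3 E5.0 epiblasts, while Nanog is higher and Sycp3 overlaps.

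NODAL, a TGF-beta family ligand, keeps the epiblast pluripotent and later induces the primitive streak. Of 18 genes of the pathway 9 fell, 3 rose and 6 did not pass, with a median of -1.41. The median was -0.86 in line 1 alone and -1.94 in line 2 alone. It was -1.07 in the 9 samples alone or without embryo 1, and -1.04 without embryo 2. Among the 9 that fell were Nodal, its co-receptor genes Tdgf1 and Cfc1, the protease gene Pcsk6, Foxh1, Skil, Smad7 and Lefty2. Cfc1 and Pcsk6 overlapped between the groups. Cfc1 was at 2.11, 0.197 and 0.961 CPM in the 3 epiblasts and 0 to 0.298 CPM in FS. Pcsk6 was at 4.60, 19.7 and 2.88 CPM in the 3 epiblasts and 1.48 to 4.26 CPM in FS. Nodal itself (ENSMUSG00000037171, chr10:61417972-61425338, plus strand) was at 28.97, 26.3 and 24.5 CPM in the 3 epiblasts and 0.456 to 5.96 CPM in FS (median 2.64). All FS samples were below, with a difference of -3.28 ± 0.66 on the log2 scale (adjusted p 0.000544). Lefty2, a secreted inhibitor and target of NODAL, was at 4.72, 8.65 and 4.92 CPM in the 3 epiblasts and 0 to 0.795 CPM in FS (median 0.14). Lefty2 lay below every epiblast in each FS sample, and fell at -4.26 ± 1.07 (SE, log2, adjusted p 0.00326). Smad7, an inhibitory SMAD, was at 137, 189.6 and 104 CPM in the 3 epiblasts and 6.21 to 32.8 CPM in FS (median 13.1). It fell at -3.11 ± 0.45 (adjusted p 3.24e-05), and Skil, a SMAD corepressor induced by the pathway, at -1.77 ± 0.15 (adjusted p 2.28e-09). The 3 that rose were Smad3, which carries the signal to the nucleus, and the receptor genes Acvr1b and Acvr2a. Smad3 was at 38.3 to 72.1 CPM in FS, with a median of 50.8, against 21.9, 21.6 and 18.01 CPM at E5.0. Smad3 was above every epiblast in each FS sample, a rise of 1.37 ± 0.19 (SE, log2, adjusted p 3.44e-06), and the receptor gene Acvr1b rose at 0.75 ± 0.18 (adjusted p 0.00133).

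Primitive streak genes were few and uneven. Of 15 listed, 13 were tested, 3 fell (Mixl1, Lhx1 and Gata6), none rose and 10 did not pass, with a median of -1.71, which was -2.34 without passage 10, -3.86 in line 2 alone and -0.73 in line 1 alone. Gata6 and Lhx1 are also expressed in visceral endoderm. Its markers, Gata6 among them, summed to 652, 815 and 261 CPM in E5.0 embryos 1, 2 and 4. In FS the sums were 2.34 to 3.90 CPM. Gata6 alone was at 1.62, 2.95 and 3.96 CPM in embryos 1, 2 and 4. The part of such RNA was not tested. T (ENSMUSG00000062327, chr17:8434423-8442496, plus strand), the T-box factor brachyury, was at 30.5, 3.43 and 0.326 CPM in line 1 passages 10, 11 and 18 and at 0, 0.106 and 1.65 CPM in line 2 passages 12, 13 and 16. The epiblasts held 0.124, 0 and 0 CPM, and the difference did not pass with all samples (adjusted p 0.0659), but did without passage 12 (adjusted p 0.0438) or 13 (adjusted p 0.0494), in line 1 alone (adjusted p 0.0190) and by DESeq2 (adjusted p 0.000731). Lhx1, a LIM homeobox factor, was at 21.9, 15.3 and 10.3 CPM in the 3 epiblasts and 0.0805 to 5.77 CPM in FS (median 0.35). Lhx1 fell without overlap between the groups, at -3.64 ± 0.90 (SE, log2, adjusted p 0.00329), and its highest FS sample was again line 1 passage 10, without which it was at -5.19. Mixl1, a homeobox factor of mesendoderm, fell at -4.06 ± 1.21 (adjusted p 0.00963). Mixl1 was at -4.73 without passage 10, and its call was lost without embryo 4 (-3.55, adjusted p 0.0528) and in line 1 alone (-3.15, adjusted p 0.0753). The members lower numbered 6 without passage 10 or in line 2 alone and 5 with the FS lines as separate groups. Members higher numbered 2 without passage 13, by DESeq2 and in line 1 alone, and 1 without passage 12, passage 18, embryo 1 or embryo 2 and without the filter.

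WNT targets report beta-catenin signalling in many tissues. Of 14 listed, 12 were tested, 5 fell, 2 rose and 5 did not pass, and the median of -0.68 became 0.01 without embryo 2. Only 1 rose without passage 10, 11, 16 or 18 or embryo 1 or 4, and 4 rose in line 1 alone. Axin2, a negative feedback gene, was at 73.7, 77.6 and 87.4 CPM in the 3 epiblasts and 8.07 to 28.6 CPM in FS (median 11.7). Axin2 fell in all FS samples, at -2.50 ± 0.36 (SE, log2, adjusted p 1.55e-05). Lef1, a DNA-binding partner of beta-catenin, was at 298, 346 and 339 CPM in the 3 epiblasts and 46.6 to 95.2 CPM in FS (median 59.9). It fell at -2.31 ± 0.20 (adjusted p 1.49e-08), and its relative Tcf7 at -0.88 ± 0.13 (adjusted p 1.01e-05). Nkd1, another feedback gene, rose at 1.93 ± 0.33 (adjusted p 4.63e-05).

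FGF signals act through ERK, and its feedback genes are commonly read as a measure of that activity. Of 16 genes 10 fell, 2 rose and 4 did not pass, with a median of -1.14. Fgf4, the ligand made by the epiblast, was at 115, 111 and 103 CPM in the 3 epiblasts and 7.83 to 31.9 CPM in FS (median 20.5). All FS samples stayed below the epiblasts, at -2.50 ± 0.30 (SE, log2, adjusted p 1.44e-06). The phosphatase gene Dusp4, a feedback target, was at 125, 159 and 170.3 CPM in the 3 epiblasts and 7.67 to 27.1 CPM in FS (median 17.5). Dusp4 lay below every epiblast in each FS sample, and fell at -3.14 ± 0.26 (SE, log2, adjusted p 1.43e-08), and Dusp6 by less, at -0.97 ± 0.16 (adjusted p 3.12e-05). Spry4, an inhibitor of receptor signalling, fell at -2.01 ± 0.31 (adjusted p 2.53e-05), and the immediate early factor Egr1 at -3.74 ± 0.47 (adjusted p 5.5e-06). Spred1, which also restrains ERK, rose at 1.45 ± 0.21 (adjusted p 7.63e-06). Fgf5, on this list too, did not pass.

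BMP signals come in the embryo from the tissues beside the epiblast. Of 16 genes 8 fell, 1 rose and 7 did not pass, with a median of -1.12, or -0.54 without embryo 2. The median was -0.72 in line 1 alone and -1.95 in line 2 alone. The direct target Id1 was at 13.2, 18.9 and 15.01 CPM in the 3 epiblasts and 0.951 to 2.39 CPM in FS (median 1.86). Id1 fell without overlap between the groups, at -3.09 ± 0.36 (SE, log2, adjusted p 3.26e-07), and Id2 at -2.21 ± 0.29 (adjusted p 1.86e-06). Msx1, a homeobox target, was at 21.01, 25.3 and 19.9 CPM in the 3 epiblasts and 0 to 0.591 CPM in FS (median 0.234). Msx1 fell in all FS samples, at -6.34 ± 0.63 (SE, log2, adjusted p 5.27e-08). The ligand gene Bmp4 fell at -2.08 ± 0.42 (adjusted p 0.000255). Bmp8b was high in embryo 2 alone and lost its call without it (-0.99, adjusted p 0.287).

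Retinoic acid signals through nuclear receptors. Of 15 listed, 10 were tested, 3 fell, 1 rose (Crabp1) and 6 did not pass, with a median of -0.48, which became -0.03 without embryo 1. No member rose without passage 10, passage 11 or embryo 4, and 2 did without passage 12. The receptor genes Rara and Rarg fell at -1.28 ± 0.13 (adjusted p 7.2e-08) and -0.65 ± 0.11 (adjusted p 5.69e-05), with no overlap between the groups. Cyp26a1, which degrades retinoic acid, was at 34.4, 26.5 and 5.52 CPM in the 3 epiblasts and 0 to 10.04 CPM in FS (median 2.32). The groups overlapped, and the call of -2.49 ± 0.91 (adjusted p 0.0318) was lost in 8 of its alternatives.

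Some neural genes, and cytoskeletal genes shared with neural cells, were higher in FS. Of 12 listed, 10 were tested, 4 rose, none fell and 6 did not pass, with a median of 2.09 that was 0.40 in line 2 alone. Nes (ENSMUSG00000004891, chr3:87971078-87980451, plus strand), the intermediate filament nestin, was at 269.8 to 387 CPM in FS, with a median of 320.1, against 54.5, 67.4 and 43.4 CPM at E5.0. Without overlap between the groups, Nes rose by 2.52 ± 0.15 (SE, log2, adjusted p 1.18e-11). Ncam1, an adhesion molecule, was at 33.3 to 61.8 CPM in FS, with a median of 42.5, against 0.622, 2.95 and 2.28 CPM at E5.0. Ncam1 rose in all FS samples, by 4.57 ± 0.34 (SE, log2, adjusted p 3.96e-10), and Tubb3, a neuronal tubulin, at 2.53 ± 0.27 (adjusted p 8.94e-08). Sox1, a factor of the early neural plate, was at 11.7, 35.1 and 28.5 CPM in the 3 passages of line 1 and 7.24, 2.01 and 12.3 CPM in line 2. All FS samples exceeded the epiblasts, and the rise was 3.94 ± 0.91 (SE, log2, adjusted p 0.00156) over an E5.0 level of 0.249, 1.38 and 1.56 CPM. Pax6, a later neural factor, did not pass (-0.72 on the log2 scale).

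Several epithelial genes were lower in FS, while a pair of factors known to repress them was higher. Of 20 genes of epithelial junctions and of the epithelial to mesenchymal transition 9 fell, 3 rose (5 by DESeq2) and 8 did not pass, with a median of 0.08. Cdh1, E-cadherin, was at 151 to 320.1 CPM in FS, with a median of 217, against 624, 666 and 583 CPM at E5.0. All FS samples were below the epiblasts, with a difference of -1.42 ± 0.17 on the log2 scale (adjusted p 8.36e-07). Zeb2 (ENSMUSG00000026872, chr2:44983632-45117395, minus strand), a repressor of E-cadherin, was at 41.6 to 60.5 CPM in FS, with a median of 48.4, against 1.37, 2.55 and 0.601 CPM at E5.0. Zeb2 was above every epiblast in each FS sample, a rise of 5.16 ± 0.34 (SE, log2, adjusted p 5.24e-11). Zeb1, its relative, was at 33.6 to 53.7 CPM in FS, with a median of 42.2, against 0.87, 5.31 and 1.201 CPM at E5.0. Without overlap between the groups, Zeb1 rose by 4.27 ± 0.36 (SE, log2, adjusted p 3.97e-09), or by 5.34 without embryo 2. Vim, the filament protein vimentin, rose at 0.93 ± 0.21 (adjusted p 0.00111). Esrp1, an epithelial splicing factor, fell at -2.10 ± 0.26 (adjusted p 2.27e-06), and the tight junction genes Cldn6 and Cldn7 at -2.13 ± 0.37 (adjusted p 0.000151) and -2.18 ± 0.61 (adjusted p 0.00686). Snai1 and Twist1, which act on the side of Zeb1 and Zeb2 in other tissues, fell at -1.68 and -2.84.

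More basement membrane genes were lower than higher in FS. Of 18 members 9 fell, 4 rose and 5 did not pass, with a median of -0.72. Fn1, fibronectin, was at 353, 1019.7 and 713 CPM in the 3 epiblasts and 113 to 318 CPM in FS (median 149). All FS samples stayed below the epiblasts, at -1.92 ± 0.30 (SE, log2, adjusted p 6.16e-05), and the epiblasts differed among themselves more than the FS samples did. Col4a1, a chain of collagen IV, was at 195, 310.3 and 132 CPM in the 3 epiblasts and 44.8 to 111 CPM in FS (median 70.6). It fell at -1.53 ± 0.25 (adjusted p 5.17e-05). The nidogen gene Nid2 fell at -1.55 ± 0.16 (adjusted p 4.19e-08) and the laminin chain gene Lama5 at -0.96 ± 0.14 (adjusted p 7.15e-06). Itga6, a laminin receptor chain, rose at 1.58 ± 0.23 (adjusted p 1.46e-05), and Lamb2 at 1.79 ± 0.34 (adjusted p 0.000177), or 2.43 without embryo 2. Visceral endoderm also makes these proteins, and its marker sums of 652, 815 and 261 CPM stand beside the fall in FS. The part of such RNA in the result was not tested.

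Most genes of the cholesterol pathway were higher in FS, while the gene of its own brake fell. Of 23 sterol genes 18 rose, 1 fell and 4 did not pass, with a median of 1.17, against 27.1% of all genes higher. Hmgcs1 (ENSMUSG00000093930), which starts the pathway, was at 485 to 697 CPM in FS, with a median of 568, against 111, 149 and 153 CPM at E5.0. Hmgcs1 rose in all FS samples, by 2.09 ± 0.17 (SE, log2, adjusted p 1.42e-09). Msmo1, a demethylating oxidase, was at 152 to 220.1 CPM in FS, with a median of 189.7, against 22.9, 33.4 and 34.6 CPM at E5.0. All FS samples exceeded the epiblasts, and the rise was 2.62 ± 0.20 (SE, log2, adjusted p 7.61e-10). Insig1 (ENSMUSG00000045294, chr5:28071363-28078662, plus strand), the membrane protein that holds the pathway's activator SREBP back when sterols are plentiful, was at 83.6, 126 and 92.2 CPM in the 3 epiblasts and 0 to 0.326 CPM in FS (median 0.0528). Insig1 lay below every epiblast in each FS sample, and fell at -10.00 ± 0.35 (SE, log2, adjusted p 1.78e-15), and no FS sample came near an epiblast. Without passage 18 all FS samples held 3 counts or fewer, and the log2 bound was -8.51. Insig1 was read at 35.1 to 47.8 CPM in AF, 82.2 to 110.1 CPM in AFX, 37.5 to 55.99 CPM at E5.5 and 28.2 to 45.5 CPM at E6.0, so FS was the one group of 6 near 0.

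Genes of the ATF4 response, which supplies amino acids and one-carbon units under stress, were higher in FS. Of 20 members 17 rose, 1 fell and 2 did not pass, with a median of 1.97. Atf4, the transcription factor itself, was at 236 to 279.5 CPM in FS, with a median of 247, against 133, 132 and 90.3 CPM at E5.0. Atf4 was above every epiblast in each FS sample, a rise of 1.09 ± 0.16 (SE, log2, adjusted p 4.88e-06). Asns, asparagine synthetase, was at 98.3 to 237 CPM in FS, with a median of 174, against 21.4, 24.6 and 27.7 CPM at E5.0. Without overlap between the groups, Asns rose by 2.82 ± 0.43 (SE, log2, adjusted p 4.44e-05). Psat1, of serine synthesis, was at 166 to 333 CPM in FS, with a median of 256, against 38.5, 47.2 and 60.2 CPM at E5.0. Psat1 rose in all FS samples, by 2.37 ± 0.30 (SE, log2, adjusted p 3.25e-06). Chac1 (ENSMUSG00000027313, chr2:119351229-119354381, plus strand), which breaks down glutathione, was at 14.4 to 31.5 CPM in FS, with a median of 20.03, against 0.497, 0.197 and 0 CPM at E5.0. All FS samples exceeded the epiblasts, and the rise was 6.44 ± 1.12 (SE, log2, adjusted p 0.000152). It rests on few counts at E5.0, and the fold was 5.78 on the log2 scale without embryo 4 and at least 5.48 without embryo 1. Pck2, the mitochondrial enzyme that makes phosphoenolpyruvate, rose at 3.43 ± 0.38 (adjusted p 6.68e-07), and Trib3, a pseudokinase that restrains ATF4, at 2.42 ± 0.59 (adjusted p 0.00247). Slc3a2, a chain of amino acid transporters, was the member that fell, at -0.48 ± 0.16 (adjusted p 0.0131), a call lost in line 2 alone (-0.32, adjusted p 0.127) and without embryo 4 (-0.37, adjusted p 0.104). Chac1 rose with age in the embryo as well, to 20.1 to 43.5 CPM at E6.0, with E6.0 minus E5.0 at 6.97 ± 1.16 (adjusted p 0.000349).

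The letters TGATGNAA, the core of the composite site for ATF4 and C/EBP factors, were searched in the same promoter windows on both strands. They were found in 5 of 17 matched members (Asns, Chac1, Nupr1, Pck2 and Slc7a11) and in 955 of all 27025 promoters (3.53%). The last 200 bases before the start are shown for the 3 of these with values above, with the match in capitals.
Asns (chr6:7693210-7693409, minus strand): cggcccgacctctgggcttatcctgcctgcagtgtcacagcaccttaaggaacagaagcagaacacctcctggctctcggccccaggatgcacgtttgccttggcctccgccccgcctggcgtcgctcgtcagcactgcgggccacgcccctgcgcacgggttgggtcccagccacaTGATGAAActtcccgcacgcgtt
Chac1 (chr2:119351042-119351241, plus strand): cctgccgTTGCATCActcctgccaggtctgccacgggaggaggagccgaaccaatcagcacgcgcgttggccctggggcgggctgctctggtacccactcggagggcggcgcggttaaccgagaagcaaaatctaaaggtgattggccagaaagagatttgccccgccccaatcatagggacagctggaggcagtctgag
Pck2 (chr14:55540066-55540265, plus strand): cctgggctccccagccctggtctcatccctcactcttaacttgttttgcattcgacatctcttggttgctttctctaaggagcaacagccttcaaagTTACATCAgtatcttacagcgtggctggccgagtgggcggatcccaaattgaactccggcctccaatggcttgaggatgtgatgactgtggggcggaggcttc
The match began 23 bases before the start on the strand of the gene in Asns, and 193 and 103 bases before it on the opposite strand in Chac1 and Pck2. Nupr1, which holds the letters, did not differ by the test (-0.02 on the log2 scale), and Psat1 rose without them in this window. The other 3 searches used the same windows and both strands. The sterol response letters TCACNCCAC were in 1 of 15 matched sterol genes (Hmgcs1) and in 279 of all promoters (1.03%). The p53 core, read as CNNG, 6 free letters and CNNG, was in 9 of 11 matched p53 targets and in 17106 of all (63.3%), and the hypoxia core ACGTG, letters that overlap the E-box above, in 10 of 22 matched genes of glycolysis and the hypoxia response and in 4467 of all (16.5%).

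**Figure D3:**
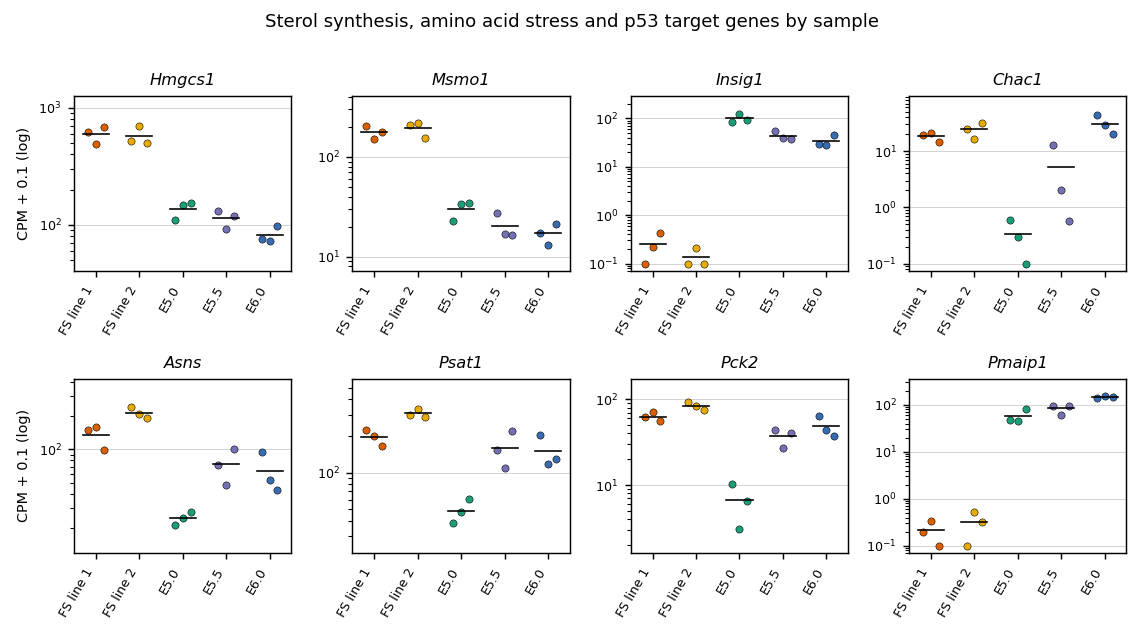
CPM (log axes, 0.1 CPM added) of 3 sterol genes, 4 ATF4 response genes and Pmaip1 in the 3 samples of each FS line and of each epiblast stage (E5.0, E5.5, E6.0), with a bar at the group mean. Hmgcs1 and Msmo1 are above the epiblasts in all 6 FS samples, and Insig1 and Pmaip1 are near 0 in them.

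Of 15 target genes of the tumour suppressor p53, 10 rose, 2 fell and 3 did not pass, with a median of 1.33. Ccng1, cyclin G1, was at 166 to 318 CPM in FS, with a median of 237, against 90.1, 39.1 and 71.5 CPM at E5.0. Ccng1 was above every epiblast in each FS sample, a rise of 1.84 ± 0.26 (SE, log2, adjusted p 8.25e-06). Cdkn1a, the cell cycle inhibitor p21, rose at 1.57 ± 0.33 (adjusted p 0.000425), and Zmat3, an RNA-binding protein, at 1.33 ± 0.13 (adjusted p 3.93e-08). The 2 members that fell were Pmaip1 and Bax, which promote cell death, but Fas and Perp, which also do, rose, and Bbc3 did not pass. Pmaip1 (ENSMUSG00000024521, chr18:66458533-66465565, plus strand), the BH3-only protein Noxa, was at 48.1, 44.2 and 81.1 CPM in the 3 epiblasts and 0 to 0.422 CPM in FS (median 0.164). Pmaip1 fell without overlap between the groups, at -8.42 ± 0.36 (SE, log2, adjusted p 1.63e-13). Pmaip1 was low in the other cultures too, at 0.557 to 1.98 CPM in AF and 0.0672 to 0.125 CPM in AFX, and high at E6.0 (139 to 157 CPM). Bax fell by a small amount, at -0.54 ± 0.14 (adjusted p 0.00244).

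Of 24 genes of glycolysis and the hypoxia response 9 rose, 1 fell and 14 did not pass, with a median of 0.29. Slc2a3, a glucose transporter, was at 378 to 703 CPM in FS, with a median of 539.7, against 115, 85.3 and 68.8 CPM at E5.0. Without overlap between the groups, Slc2a3 rose by 2.60 ± 0.40 (SE, log2, adjusted p 5.13e-05), and Slc2a1, another one, at 1.34 ± 0.23 (adjusted p 9.23e-05). Vegfa, the growth factor of blood vessels, was at 60.3 to 125 CPM in FS, with a median of 81.1, against 17.4, 11.99 and 6.24 CPM at E5.0. Vegfa rose in all FS samples, by 2.87 ± 0.47 (SE, log2, adjusted p 8.08e-05). Egln3, the hydroxylase that marks HIF for removal and is itself induced by it, was at 10.4 to 32.1 CPM in FS, with a median of 23.1, against 102, 46.2 and 70.9 CPM at E5.0. Egln3 fell in all FS samples, at -1.67 ± 0.44 (SE, log2, adjusted p 0.00414). Pkm, pyruvate kinase, was at 2475 to 2847 CPM in FS, with a median of 2550.5, against 2611, 2617 and 2641 CPM at E5.0. The groups overlapped (-0.02 ± 0.08, adjusted p 0.850), as they did for Ldha, lactate dehydrogenase (-0.13 ± 0.11, adjusted p 0.338).

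The protein-coding genes of the mitochondrial genome took a smaller share of the FS libraries. These 13 genes took 0.6253% ± 0.0767 (SD, n = 6) of the counts in FS and 1.44% ± 0.193 (n = 3) at E5.0 (exact permutation p = 0.0238, adjusted over 4 measures 0.0476). In the test by gene 12 fell and mt-Nd6 rose, with a median of -1.64. mt-Co1, a subunit of cytochrome oxidase, was at 3312, 3998 and 4592 CPM in the 3 epiblasts and 1166 to 1722 CPM in FS (median 1491). All FS samples stayed below the epiblasts, at -1.42 ± 0.11 (SE, log2, adjusted p 7.28e-10), and mt-Nd2, of complex I, at -1.92 ± 0.15 (adjusted p 1.42e-09). mt-Nd6, which lies on the other strand of the genome, rose at 0.58 ± 0.20 (adjusted p 0.0208), with overlapping groups and a call lost in 4 alternatives. Whether the counting used strand is not given in the sources used here, so reads of mt-Nd6 and of its antisense neighbours cannot be told apart.

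Immediate early genes respond within minutes to growth factors and to handling. Of 19 members 9 fell, 3 rose and 7 did not pass, with a median of -1.61, -0.87 without embryo 2 and -0.57 in the 9 samples alone. Myc, a driver of growth, was at 49.7, 74.7 and 39.6 CPM in the 3 epiblasts and 6.61 to 23.1 CPM in FS (median 12.8). Myc lay below every epiblast in each FS sample, and fell at -2.04 ± 0.33 (SE, log2, adjusted p 4.81e-05). Btg2, an antiproliferative gene, was at 6.59, 3.93 and 4.44 CPM in the 3 epiblasts and 28.03 to 52.7 CPM in FS (median 33.04). It rose at 2.83 ± 0.32 (adjusted p 2.38e-07). Cells of a culture and a dissected epiblast were collected in different ways, which cannot be told apart from the state of the cells.

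Imprinted genes, which are expressed from the allele of one parent, did not change together, and some parted the FS lines. Of 28 members 8 rose, 4 fell and 16 did not pass, with a median of 0.27. Without embryo 2 only 1 fell, and without embryo 4 only 5 rose. Grb10, an adaptor that restrains insulin signalling, was at 424 to 562 CPM in FS, with a median of 446, against 57.8, 18.7 and 104 CPM at E5.0. All FS samples exceeded the epiblasts, and the rise was 2.95 ± 0.38 (SE, log2, adjusted p 7.52e-06), and 3.60 without embryo 4. Sgce, a sarcoglycan, was at 10.2 to 15.7 CPM in FS, with a median of 11.1, against 0.87, 0 and 0 CPM at E5.0. Sgce was above every epiblast in each FS sample, a rise of 5.19 ± 0.73 (SE, log2, adjusted p 5.32e-06). The rise was 4.54 without embryo 4 and at least 4.67 without embryo 1, the one epiblast with counts. Rian and Peg3 rose at 1.31 ± 0.22 (adjusted p 5.36e-05) and 1.14 ± 0.22 (adjusted p 0.000275). H19 (ENSMUSG00000000031, chr7:142575529-142578143, minus strand), a noncoding RNA of the maternal allele, was at 0.199, 0.118 and 0.0815 CPM in line 1 and 25.1, 17.2 and 29.3 CPM in line 2. The epiblasts held 91.3, 149.9 and 49.96 CPM, all above FS, and the fall of -2.98 ± 1.02 (adjusted p 0.0232) was lost without embryo 2 (-2.54, adjusted p 0.0812) and in the 9 samples alone (-2.99, adjusted p 0.0967). Kcnq1ot1 (ENSMUSG00000101609), a noncoding RNA antisense to Kcnq1, was at 1.69, 1.06 and 1.55 CPM in line 1 and 253, 355 and 314 CPM in line 2. Line 1 alone was lower than E5.0 (-7.29, adjusted p 1.72e-12), line 2 was not (0.42), and the gene did not pass with the lines together (adjusted p 0.708) but did with the lines as separate groups (-3.43, adjusted p 7.02e-11).

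Of 19 genes of the interferon response and of MHC class I, 17 were tested, 6 rose, 3 fell and 8 did not pass, with a median of 0.84. B2m, the light chain of MHC class I, was at 9.19 to 14.2 CPM in FS, with a median of 10.6, against 1.74, 0.393 and 3.48 CPM at E5.0. Without overlap between the groups, B2m rose by 2.49 ± 0.40 (SE, log2, adjusted p 2.38e-05), or by 3.26 without embryo 4. Oasl2, an interferon-induced protein, was at 79.95, 77.4 and 118 CPM in the 3 epiblasts and 0.298 to 17.5 CPM in FS (median 6.86). Oasl2 fell without overlap between the groups, at -3.79 ± 0.75 (SE, log2, adjusted p 0.000546). Psmb8, a subunit of the immunoproteasome, fell at -4.76 ± 0.60 (adjusted p 4.85e-06), or -4.16 without embryo 1. Bst2, an antiviral membrane protein, did not pass with the lines together, but fell with the lines as separate groups (-0.98, adjusted p 0.000854) and in line 1 alone (-2.30, adjusted p 9.75e-07), while line 2 alone gave 0.34 (adjusted p 0.295). With the lines as separate groups 5 members of the list fell.

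Of the 6 sex-linked genes 1 fell (Tsix) and 5 did not pass. Xist also fell with the FS lines as separate groups (-4.97, adjusted p 0.0175) and in line 2 alone (-9.90, adjusted p 0.00564). Xist, the RNA of the inactive X, was at 721, 533 and 272 CPM in line 1, 0.241, 0.951 and 0.513 CPM in line 2, and 856, 58.4 and 649 CPM in embryos 1, 2 and 4. Ddx3y was at 0.199, 0.355 and 0.0815 CPM in line 1, 76.4, 96.002 and 84.99 CPM in line 2, and 0.249, 59.3 and 0.240 CPM in the embryos. Line 1 and embryos 1 and 4 were high in Xist and low in Ddx3y, and line 2 was the reverse. Embryo 2 held RNA of both, with Xist at 58.4 CPM and Ddx3y at 59.3 CPM. The part of sex in the results was not tested. Tsix lies antisense to Xist, so its reads cannot be assigned without strand.

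**Figure D4:**
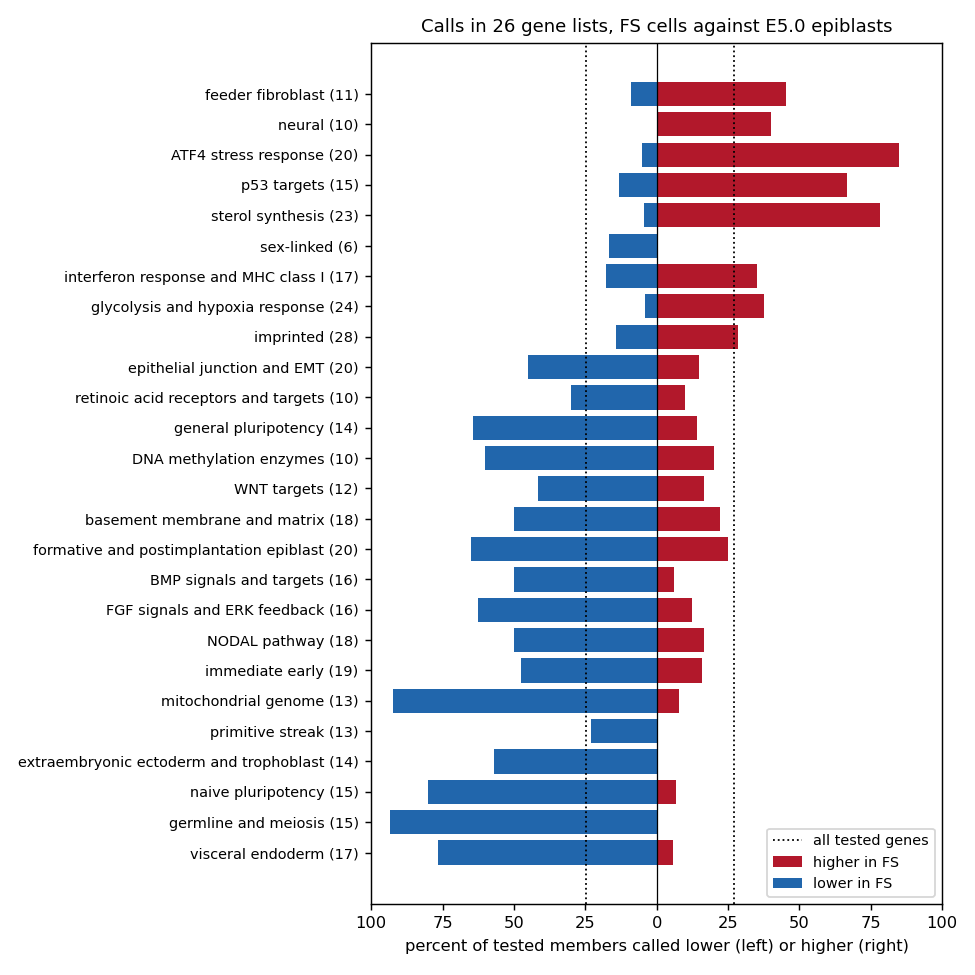
Percent of the tested members of each of 26 gene lists (number tested in brackets) that were called higher in FS (right, red) or lower (left, blue), with dotted lines at 27.1% and 24.8%, the shares of all 16614 tested genes. Germline, mitochondrial genome, naive and visceral endoderm genes reach furthest to the left, and ATF4, sterol and p53 genes furthest to the right.

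Named by size were 12 genes with the largest fitted rise among those of at least 10 CPM in FS with no overlap, and they included signals, receptors and adhesion molecules. Fitted folds over a group with hardly any counts are not exact, so these lists do not rank the genes against others with large changes, such as Zeb2, Insig1 and Dppa5a. Ccl19 (ENSMUSG00000071005, chr4:42754525-42756577, minus strand), a chemokine, had no count at E5.0 and ran from 10.4 to 16.8 CPM in FS. Ccl19 was at least 27.2-fold higher in FS (adjusted p 9.23e-07), and was read in AF at 0 to 0.264 CPM. Cux2, a homeobox factor, was at least 24.7-fold higher in FS (adjusted p 2.66e-08). The membrane proteins Ano3, Ptprd (a receptor phosphatase), Sdk2 (an adhesion molecule) and Pla2r1 (a phospholipase receptor) were at medians of 14.1, 12.1, 15.3 and 11.9 CPM in FS and at most 0.590 CPM in an E5.0 epiblast. Penk, the enkephalin precursor, was at least 22.8-fold higher in FS (adjusted p 3.74e-07). Hmgn3, a nucleosome-binding protein, was at least 30.1-fold higher in FS (adjusted p 5.81e-09). Lix1l was at least 27.5-fold higher in FS (adjusted p 8.9e-10). Mctp1 and the orphan receptor gene Gpr37 were at least 25.4-fold higher in FS (adjusted p 3.91e-05) and at least 36.3-fold higher in FS (adjusted p 0.000587), and both differed between the FS lines. Chac1 completed the set. In all, 2134 genes met this rule and 4 unnamed or predicted loci above the last of the 12 were left out.

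The 12 genes with the largest fitted fall by the same rule included genes of absorptive epithelium and of the germline. Cubn, Apob, Apoa4 and the peptidase gene Dpp4 are expressed in absorptive epithelia, visceral endoderm among them. Sohlh2, a germ cell transcription factor, was at 21.9, 10.4 and 33.7 CPM at E5.0, with no count in FS, and was at least 81.2-fold lower in FS (adjusted p 4.8e-10). Tex11, an X-linked meiosis gene, was at least 62.7-fold lower in FS (adjusted p 2.15e-09). Fmr1nb was at least 137-fold lower in FS (adjusted p 2.83e-14). Rbmxl2, Pramef12, Nlrp4c, Rpl10l and Slfn9 also fell, each by at least 73.6-fold, but they belong to families or have near copies, so their reads may be shared and the values are uncertain. This rule was met by 2469 genes.

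Among the most abundant genes with at least a 4-fold change, Map1b, a microtubule-associated protein, was at 496 to 702 CPM in FS, with a median of 611, against 110.3, 105 and 226 CPM at E5.0. Map1b rose in all FS samples, by 2.03 ± 0.22 (SE, log2, adjusted p 2.85e-07). Gtf2i, a general transcription factor, rose at 2.05 ± 0.14 (adjusted p 6.64e-11), and Chd7, a chromatin remodeller, at 2.15 ± 0.18 (adjusted p 4.47e-09). Both were near the FS level by E6.0, with E6.0 minus E5.0 at 2.37 ± 0.15 (adjusted p 2.57e-10) and 2.16 ± 0.20 (adjusted p 1.07e-07). The histone gene Hist2h2aa2 rose at 3.54 ± 0.68 (adjusted p 0.000463), with an uncertain value because of its near copies. Of those that fell, Mkrn1, a ubiquitin ligase, was at 822, 772 and 760.1 CPM in the 3 epiblasts and 95.002 to 187 CPM in FS (median 133). Mkrn1 fell in all FS samples, at -2.51 ± 0.17 (SE, log2, adjusted p 1.74e-10). Tle4, a corepressor of the Groucho family, fell at -2.31 ± 0.20 (adjusted p 1.84e-08), and the transcription factor Myrf at -2.32 ± 0.20 (adjusted p 8.67e-09). Zfp980, a zinc finger gene with many relatives, fell at -7.35 ± 0.29 (adjusted p 4.6e-13) and is uncertain for that reason.

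Genes of the tissues around the epiblast were among the largest differences. Of 20 visceral endoderm genes 17 were tested, 13 fell, 1 rose (Rbp4) and 3 did not pass, with a median of -6.06, or -4.11 with bounds. No member rose in the 9 samples alone or without passage 12, 13, 16 or 18 or embryo 1. Cubn (ENSMUSG00000026726, chr2:13276338-13491813, minus strand), the endocytic receptor cubilin, was at 350.02, 629.6 and 149.9 CPM in the 3 epiblasts and 0 to 0.106 CPM in FS (median 0). Cubn was at least 1389-fold lower in FS (adjusted p 4.58e-10). Apob, the apolipoprotein of secreted lipid particles, was at 189, 98.6 and 38.7 CPM in the epiblasts, with no count in FS. Apob was at least 401-fold lower in FS (adjusted p 2.32e-08). On the log2 scale the bound of Cubn went from -10.44 to -9.85 without embryo 2, and that of Apob from -8.65 to -7.98 without embryo 1. Hnf4a, a transcription factor of endoderm, was at least 44.5-fold lower in FS (adjusted p 2.75e-09), and Ttr, a carrier protein, at least 25.5-fold lower in FS (adjusted p 1.45e-06). Gata4 fell at -6.06 ± 0.74 (adjusted p 8.55e-07) (log2 bound -5.58 without passage 10), Apoa1 at -7.52 ± 0.64 (adjusted p 3.64e-09) (log2 bound -6.84 without passage 11) and the endocytic adaptor Dab2 at -3.51 ± 0.19 (adjusted p 2.72e-12). Amot, a regulator of YAP that is not restricted to endoderm, was at 392, 449 and 423 CPM in the 3 epiblasts and 27.1 to 44.3 CPM in FS (median 30.8). All FS samples stayed below the epiblasts, at -3.63 ± 0.48 (SE, log2, adjusted p 1.3e-05). Cubn and Apob were lower at the later stages. Cubn was at 3.73 to 26.6 CPM at E5.5 and 1.05 to 1.49 CPM at E6.0. Apob was at 9.62 to 19.5 CPM at E5.5 and 0.693 to 2.66 CPM at E6.0. In bulk RNA, fewer cells of a type and less RNA per cell cannot be told apart.

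Of 18 genes of extraembryonic ectoderm and trophoblast 14 were tested, 8 fell, none rose and 6 did not pass, with a median of -2.02, or -1.88 with bounds. Embryo 2 stood apart in several of them. Hand1, a trophoblast factor, was at 0, 7.27 and 0 CPM in embryos 1, 2 and 4, and Wnt7b, a WNT ligand, at 0, 12.8 and 0 CPM. Both were called lower in FS (adjusted p 0.00374 and 0.0428), but the other epiblasts had no count of either. Without embryo 2, Hand1 had no measurable fold, and Wnt7b had counts in FS alone. By DESeq2 and in line 1 alone neither was called (adjusted p 0.0535 and 0.0546 for Hand1), and the call of Wnt7b was also lost without passage 10, 12, 13, 16 or 18 (adjusted p 0.0697 to 0.0764). Plet1, a surface protein of trophoblast progenitors, was at 1.99, 14.7 and 1.08 CPM in the 3 epiblasts and 0.0815 to 0.994 CPM in FS (median 0.566). It fell at -3.54 ± 0.82 (adjusted p 0.00103) and lost the call without embryo 2 (-1.63, adjusted p 0.129). Without that embryo 3 members were lower, 2 higher, and the median was -0.30.

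Genes of feeder fibroblasts, on which pluripotent lines are often grown, were in part higher in FS. Of 13 listed, 12 were in the table and 11 tested, 5 rose, 1 fell and 5 did not pass, with a median of 3.20, or 0.82 with bounds. The median was 2.58 without embryo 1, 3.69 without embryo 2 and 1.996 in line 2 alone. Col1a1, a chain of collagen I, was at 6.69 to 31.3 CPM in FS, with a median of 11.2, against 0.995, 2.75 and 0.36 CPM at E5.0. All FS samples exceeded the epiblasts, and the rise was 3.76 ± 0.75 (SE, log2, adjusted p 0.000469). Without embryo 2 it was 4.60. Pdgfrb, a growth factor receptor, was at 3.91 to 6.38 CPM in FS, with a median of 5.02, against 0.746, 0 and 0 CPM at E5.0. It rose at 4.12 ± 0.67 (adjusted p 2.56e-05), a value set by the counts of embryo 1, and was at least 3.38 on the log2 scale without that embryo and 3.49 without embryo 4. Dcn, the proteoglycan decorin and a strong fibroblast gene, was at 13.3, 6.48 and 2.88 CPM in the 3 epiblasts and 0 to 0.724 CPM in FS (median 0.14). Dcn lay below every epiblast in each FS sample, and fell at -4.89 ± 0.72 (SE, log2, adjusted p 7.01e-06), with -4.16 without embryo 1 and -5.59 without passage 12. The part of feeder RNA in other results was not tested.

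**Figure D5:**
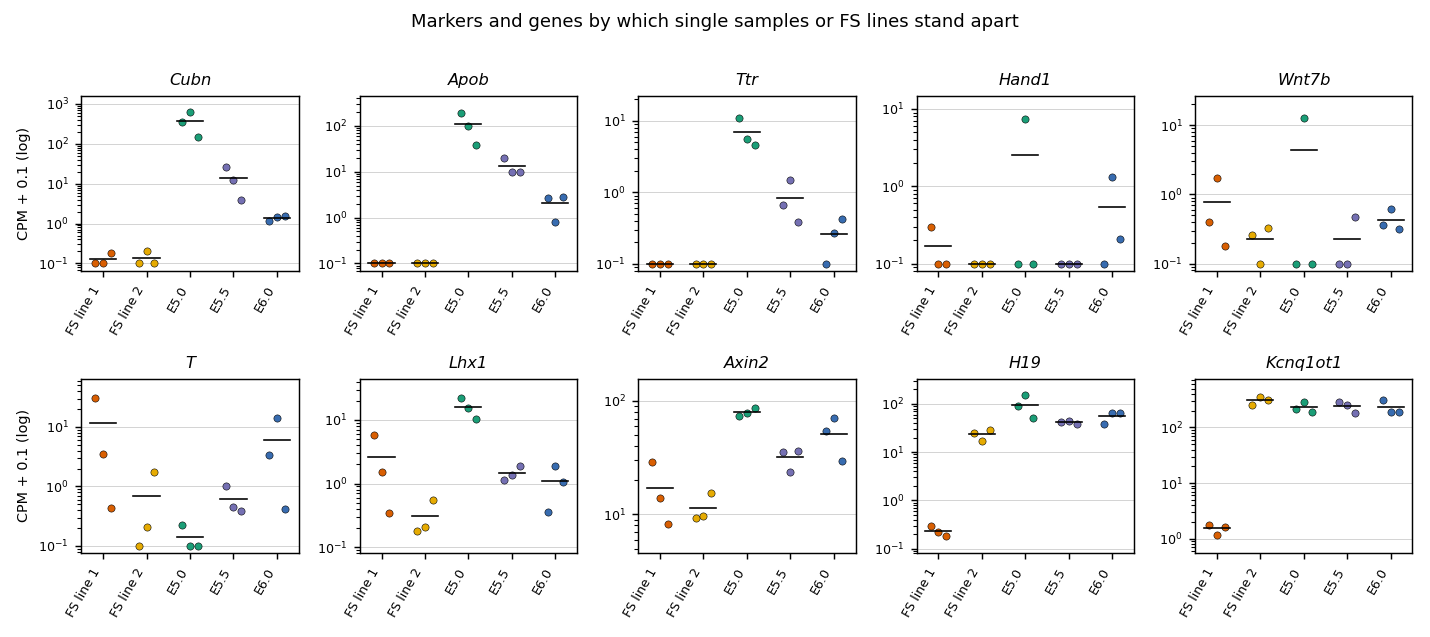
CPM (log axes, 0.1 CPM added) of 10 genes in the 3 samples of each FS line and of each epiblast stage (E5.0, E5.5, E6.0), with a bar at the group mean. Cubn, Apob and Ttr are high in all 3 E5.0 epiblasts, Hand1 and Wnt7b in embryo 2 alone, T in line 1 passage 10, and H19 and Kcnq1ot1 part the FS lines.

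The FS lines gave similar numbers of differences from E5.0 when taken singly, 7697 genes (46.3%, with 24.1% higher and 22.2% lower) for line 1 and 8030 (48.3%, with 25.4% higher and 23% lower) for line 2. Line 2 differed from line 1 in 437 genes (2.63%), 315 higher (1.9%) and 122 lower (0.734%) in line 2, a count that ran from 179 (without passage 11) to 521 when single samples were left out. Kcnq1ot1 and H19 were among them, at 7.71 and at least 6.32 on the log2 scale, and so were Gpr37 (3.07) and Cldn7 (-2.69). Tdgf1, Dppa5a, Hormad1 and Insig1 did not differ between the lines by the test, and both lines were low in them against E5.0. Dppa5a, Hormad1 and Insig1 had hardly any counts in FS, so the test could hardly show a difference between the lines in them.

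The later stages and the other cultures were set beside this comparison. They share samples with it, since FS minus E5.5 and FS minus E6.0 use the same FS samples and AF or AFX minus E5.0 the same epiblasts, so their counts are not independent. FS differed from E5.5 in 7276 genes (43.8%), with 23% of all genes higher and 20.8% lower, and from E6.0 in 6469 (38.9%, with 20.1% higher and 18.9% lower). E5.5 differed from E5.0 in 1692 genes (10.2%, with 5.64% higher and 4.54% lower at E5.5), and E6.0 in 4127 (24.8%, with 13% higher and 11.9% lower at E6.0). AF differed from E5.0 in 7335 genes (44.1%, with 23.4% higher and 20.8% lower in AF) and AFX in 7505 (45.2%, with 24% higher and 21.2% lower). FS differed from AF in 2614 genes (15.7%, with 6.85% higher and 8.88% lower in FS) and from AFX in 1143 (6.88%, with 2.85% higher and 4.03% lower). Some genes moved in the embryo in the direction of FS. Grb10 rose from E5.0 to E6.0 by 2.54 ± 0.40 (adjusted p 0.000205), Nanog by 2.88 ± 0.59 (adjusted p 0.00181), and Fgf4 and Tle4 fell, at -2.43 ± 0.38 (adjusted p 0.000113) and -2.34 ± 0.26 (adjusted p 1.97e-06). Dppa5a fell in the embryo as well, at -4.16 ± 0.34 (adjusted p 6.15e-08), but stayed at 8.81 to 10.6 CPM at E6.0, above the 0 to 0.245 CPM of FS. Dnmt3b went the other way, to 4533 to 5727 CPM at E6.0 against 1211 to 1958 CPM in FS.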

How the data were processed

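RNA sequencing of 21 mouse samples was used, and the deposited table holds raw counts of reads per gene for 33861 Ensembl genes. Per the submitters' processing notes, the authors used Trim Galore, TopHat2 2.1.0 and featureCounts 1.5.0 with the build mm10. The annotation release and the strand setting are not given in the sources used here. Positions of genes come from GENCODE M21 (GRCm38), matched on the Ensembl identifier, and promoters from RefSeq (GRCm38.p6), matched on the symbol.

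From the counts, all 21 samples were fitted in 6 groups with edgeR 4.0.16 in R 4.3.3: filterByExpr by group, TMM, robust quasi-likelihood F-tests, two-sided, adjusted by Benjamini-Hochberg over 16614 genes with a threshold of 0.05. The FS lines were split for tests between them. Where every sample of a group held at most 3 counts, the fold is a bound against 3 counts per sample; bounds cover counting error only. Total counts ran from 5827093 to 15916800 in the 9 samples compared. Pairs of samples within an FS line or within E5.0 differed beyond counting noise (chi-square divided by its degrees of freedom, 8.81 to 26.1), so none was taken for a second deposit of another. Library measures were compared by exact two-sided permutation tests in scipy 1.17.1 (with numpy 2.4.6 and pandas 2.3.3), and figures drawn with matplotlib 3.10.9.

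Genes were named if they were on one of 26 lists (those given singly were picked after their values were seen), or by size: the 12 rising and 12 falling genes with the largest change among non-overlapping genes whose higher group averaged 10 CPM or more, and the 8 and 8 most abundant with at least a 4-fold change. Predicted loci and noncoding repeats were left out of the rules by size, and some list members are not reported here. The comparison, members and lists were chosen with earlier results of these data known. Alternatives were DESeq2 1.42.0 (size factors, Wald test), no filter on low counts, a mean of at least 5 CPM, the 9 samples alone, the FS lines separate or alone, the fit without 5 dominant genes, and each sample left out. On simulated data with 16020 genes, 100 genes were changed 2-fold, 100 were changed 4-fold and all others had no group difference. The fit recovered 39% of genes changed 2-fold and 79% of those changed 4-fold, all in the right direction, and 6 of 124 calls were false (4.84%). In the data 51.8% of genes were called, a far larger share, so these rates do not carry over to this comparison.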

Additional observations from a re-analysis of the deposited data

Results flagged for a closer look

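In 7 of 135 values tested, those of named genes and library measures, one of the 6 FS samples stood far from the other 5 by Dixon's criterion, which chance alone meets at about the same rate. Line 1 passage 10 was the sample apart for T (30.5 CPM), Lhx1 (5.77 CPM), Axin2 (28.6 CPM) and Pkm (2847 CPM). Line 1 passage 11 was apart for Wnt7b, where it was high at 1.66 CPM, and for Bax, where it was low at 19.7 CPM. Line 2 passage 13 was apart for Ccl19, at 16.8 CPM.

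The FS lines differed from each other by edgeR's test in 18 of the 164 genes followed, beside 437 (2.63%) of all 16614 genes tested. Many of the 164 were picked after their values were seen, so their share cannot be set against that of all genes. In these 18 genes the differences of the lines from E5.0 differ by the same amount. Higher in line 2, on the log2 scale, were the imprinted RNAs Kcnq1ot1 (7.71), H19 (at least 6.32, line 1 holding 3 counts or fewer) and Rian (0.74), the sterol gene Idi1 (1.83), the interferon gene Bst2 (2.64), and the germline gene Rnf17 (2.46). The surface and membrane genes Gpr37 (3.07), Mctp1 (2.18), Sdk2 (1.56), Enpp3 (1.53) and Itga6 (0.91) were also higher in line 2, as were Fgf4 (1.24), Tle4 (0.75), Mkrn1 (0.61) and Dusp6 (0.61). Lower in line 2 were Cldn7 (-2.69), Cldn6 (-1.44) and Uhrf1 (-0.64). Each line is 1 derivation, so these are differences between 2 lines.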

How the results depend on the processing

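Over all alternatives the number of genes called between FS and E5.0 ran from 6218 to 9039, and leaving out single samples gave 7583 to 8404 called, 4013 to 4517 higher, 3570 to 4020 lower and 4736 to 5393 changed at least 2-fold. With a mean of at least 5 CPM, which tests fewer genes, 2665 changed at least 2-fold. Under that filter the members lower in FS numbered 3 in the naive list and 2 in the germline list. They numbered 5 in the visceral endoderm list and 1 in the list of extraembryonic ectoderm and trophoblast, so those list counts rest largely on genes of low level. Genes differing between the FS lines numbered 179 to 521 when single samples were left out. The differences in genes with at least 5 counts (1469 to 1998), mitochondrial share (-0.906 to -0.714 percentage points) and share of dominant genes (-6.96 to -3.18) kept their sign. The last did not pass with all samples (exact permutation p 0.0476, adjusted over 4 measures 0.0635) and gave exact p 0.0714 without passage 10, 12, 13, 16 or 18. With 2 epiblasts the exact test cannot reach an adjusted 0.05. Of 2923 values over 164 named genes, 2855 kept direction and call, 23 gained a call, 33 lost one and 12 changed direction. Those 12 were Otx2 (0.14 without embryo 1, range -0.36 to 0.14 with single samples left out), Fgf5 (-0.17 in line 2 alone, and -0.075 to 0.23 with single samples left out, where it was below 0 without passage 18 or embryo 2), Wnt7b (-4.58 to 0.14, the last a bound without embryo 2, whose fellows had no count), Idi1 (-0.066) in line 1 alone, Pkm (0.019 without the filter and 0.0033 in line 1 alone), Kcnq1ot1 (0.42) and Bst2 (0.34) in line 2 alone, and Ddx3y (-2.13 with the lines separate and a bound of -6.06 in line 1 alone). Hand1 gave no value without embryo 2, since both groups then held 3 counts or fewer. The cause was not tested. No paired analysis was possible because the FS samples are passages of lines, the E5.0 samples are single embryos, and no label links them. At this depth a gene without a call may still differ.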
